A study of Mus musculus with 16 samples.

Results

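This account concerns 8 genes that make and desaturate fatty acids, make sterol or control those steps: Acaca, Fasn, Elovl6, Scd1, Scd2, Sqle, Srebf1 and Srebf2. They were selected on measured values of these arrays, their Cy5 over Cy3 ratios and their Cy5 signals, with earlier results known, so their own ratios and signals are a description and carry no test. Each probe was named through the RefSeq accession that the scanner files give for it. All 8 genes had at least 1 probe, 12 probes in all, and all 8 stood among the 12311 genes tested, of 16535 named on the array. A gene with several tested probes is represented by the probe of highest mean intensity.

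Infiltrating cells were a fraction of Hepa1-6 tumours, 8 samples, enriched for inflammatory cells by density gradient centrifugation. Tumour-bearing blood was whole blood of mice with such tumours, 8 samples that carry the same 8 numbers as the fractions. Untreated blood was RNA from blood of C57Bl/6 mice without a tumour, hybridised in Cy3 on all 16 arrays, while the fraction or the tumour-bearing blood was in Cy5. Hepa1-6 is a mouse hepatoma line. The labels state that its cells were injected under the skin and that tissue was taken 10 days later from female mice, which one field describes as C57Bl/6 and the treatment text as athymic. Dyes were not swapped, each slide of 4 arrays held a single group, and the fraction and the blood were extracted with different RNA kits. A transplanted line under the skin and a fraction that is enriched, not pure, limit what the samples stand for.

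Fatty acids are built in the cytosol from acetyl-CoA. Acetyl-CoA carboxylase (Acaca) makes malonyl-CoA, fatty acid synthase (Fasn) joins it into palmitate, Elovl6 lengthens palmitate to stearate, and the stearoyl-CoA desaturases Scd1 and Scd2 place a double bond that gives palmitoleate and oleate. Squalene epoxidase (Sqle) performs the first oxygenation of sterol synthesis and is one of its rate-limiting enzymes. The SREBP transcription factors, encoded by Srebf1 and Srebf2, are held in the endoplasmic reticulum by Insig proteins while sterol is plentiful, and travel with Scap to be cleaved when it is scarce. SREBP from Srebf1 is best known for driving fatty acid genes, and SREBP from Srebf2 for driving sterol genes.

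RefSeq's table of 300-base promoter windows (GRCm38.p6, 250 bases before to 50 after a start) held 5 of the 8 genes. Scd1, Scd2 and Sqle were not among them. The windows of Fasn (minus strand, chr11:120824498-120824797), of the most downstream of 3 listed Srebf1 starts (minus strand, chr11:60210422-60210721) and of Srebf2 (plus strand, chr15:82147019-82147318) are shown because Fasn and Srebf1 lay on the same side in each group, and Srebf2 is the other SREBP gene. They read 5′ to 3′, and capitals mark CCAAT or its reverse complement, the NF-Y box that often accompanies SREBP sites.
Fasn: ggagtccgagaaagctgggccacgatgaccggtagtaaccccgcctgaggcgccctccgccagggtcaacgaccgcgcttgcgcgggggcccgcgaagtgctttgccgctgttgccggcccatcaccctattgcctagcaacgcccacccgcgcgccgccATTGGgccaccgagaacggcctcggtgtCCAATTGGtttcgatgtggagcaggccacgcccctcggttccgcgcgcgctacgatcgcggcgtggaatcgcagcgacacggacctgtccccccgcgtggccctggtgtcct
Srebf1: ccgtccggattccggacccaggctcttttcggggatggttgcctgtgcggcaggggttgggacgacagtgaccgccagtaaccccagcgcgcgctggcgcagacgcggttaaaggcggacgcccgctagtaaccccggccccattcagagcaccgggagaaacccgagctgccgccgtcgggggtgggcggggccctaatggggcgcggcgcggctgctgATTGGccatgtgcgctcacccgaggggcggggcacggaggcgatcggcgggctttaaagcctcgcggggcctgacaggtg
Srebf2: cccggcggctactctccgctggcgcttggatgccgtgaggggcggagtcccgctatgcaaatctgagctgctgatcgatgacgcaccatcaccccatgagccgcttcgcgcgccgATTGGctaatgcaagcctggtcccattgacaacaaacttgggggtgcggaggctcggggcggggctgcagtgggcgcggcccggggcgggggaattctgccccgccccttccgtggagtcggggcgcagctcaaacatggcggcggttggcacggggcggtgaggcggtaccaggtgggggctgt
Fasn had 3 CCAAT matches, at -90, -62 and -59 from its start, of which the last pair overlap, and Srebf1 and Srebf2 had 1 each in these windows. Both strands were searched, and 37.4% of 32851 promoter windows held a CCAAT. The letters GGGCGG, a GC box, occurred 5 times in the Srebf2 window and 2 times in this Srebf1 window, and 35.7% of all windows held them. The sterol regulatory element letters TCACNCCAC and the E-box CACGTG were in none of the 7 windows of the 5 genes, against 1.24% and 7.15% of all windows. A missing match says only that these letters are not in the window.

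Depth on an array is its signal over background. Of all spots, 51.1% to 65.8% were well above background in Cy5 on infiltrating cell arrays and 24.8% to 36.3% on tumour-bearing blood arrays. In Cy3 the shares were 46.6% to 51.1% on infiltrating cell arrays and 41.0% to 45.3% on blood arrays, although the labels name the same untreated blood for all of them. Log2 ratios of arrays correlated at 0.801 to 0.979 within infiltrating cells, at 0.558 to 0.833 within tumour-bearing blood and at -0.308 to -0.0816 between the groups. The number of arrays limits the precision of every value below.

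Net intensity below is the median signal of a spot minus its local background, in scanner units. A log2 ratio is Cy5 over Cy3 after background correction and loess, which removes a trend of the ratio with intensity on each array. On infiltrating cell arrays that trend was steep, so the ratio depends on it: the median of all tested genes was 0.05 with loess, 0.17 in the deposited ratios, 0.86 when arrays were centred on spike-in controls and 1.20 when they were centred on the median of all probes. In tumour-bearing blood the same medians were -0.02, -0.11, -0.18 and -0.16. Normalised Cy5 is the Cy5 signal after loess, with the average of both channels brought to a common distribution over all arrays. Cy3 therefore enters it, and it can fall where net Cy5 rises. Values with loess are given first, and other scalings are named where they turn the sign of a called gene. Small values turned often: of 96 pathway genes not called in infiltrating cells against untreated blood, 31 changed sign with median centring, 33 with spike-in centring and 10 in the deposited ratios.

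Scd2, the desaturase prominent in mouse brain, stood farthest apart. Its net Cy5 intensity was 9778 at the lowest, 23828.6 at the median and 52250.8 at the highest on infiltrating cell arrays, against 30, 40.8 and 56 on tumour-bearing blood arrays. No infiltrating cell array came near a blood array, and the ratio of the medians was 585; such a separation was common, since 75.2% of tested genes had all infiltrating cell arrays above all blood arrays in net Cy5, and 3.15% had all of them below. The log2 ratio to untreated blood was 3.04 ± 0.23 in infiltrating cells (SD, n = 8) and -0.69 ± 0.15 in tumour-bearing blood (SD, n = 8). All 8 infiltrating cell arrays lay above untreated blood and all 8 blood arrays below it, with each of the 4 scalings; with loess 9.76% of tested genes had that pattern and 8.57% the opposite one. The difference of the groups was 3.73 on the log2 scale and 6.35 with median centring. Over all tested genes the log2 Cy5 intensity, without scaling between arrays, was 2.83 higher on infiltrating cell arrays at the median gene. For Scd2 it was 7.87 higher, and 99.7% of genes had a smaller difference. One tumour-bearing blood sample, number 896, had a log2 ratio of -1.02, while the other 7 lay between -0.73 and -0.56.

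Scd1, the desaturase of liver, fat and sebaceous gland, did not follow Scd2. Its net Cy5 intensity was 166.5, 687 and 1510 (lowest, median and highest) in infiltrating cells, against 69, 91.5 and 140 in tumour-bearing blood. Every infiltrating cell array was thus brighter than every blood array in raw signal, by 7.51 times at the medians. In log2 units the Cy5 difference was 2.21, under the 2.83 of the median gene, and 38.9% of genes had a smaller one. The log2 ratio was -1.18 ± 0.53 in infiltrating cells and -0.21 ± 0.18 in tumour-bearing blood (SD, n = 8 each), with ranges that overlapped. That direction depended on the scaling: in infiltrating cells the mean was -1.58 in the deposited ratios, but 0.07 with spike-in centring and 0.41 with median centring. The difference of the groups was -0.97 with loess, -1.37 in normalised Cy5, -1.30 in the deposited ratios, 0.88 with spike-in centring and 1.21 with median centring. Scd1 was therefore brighter in infiltrating cells by less than most genes were. It lay below untreated blood with loess and in the deposited ratios, but not with spike-in or median centring. Scd1 had the widest spread of the 8 genes in infiltrating cells, and its 4 arrays on slide 3 averaged -1.50 ± 0.29, against -0.86 ± 0.55 for the 4 on slide 4 (SD). Slides 3 and 4 held infiltrating cells only, and which tumours went on which slide was not stated.

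Fasn, the fatty acid synthase, had net Cy5 intensities of 3660, 12755 and 28290.5 in infiltrating cells, against 181, 246.8 and 345.5 in tumour-bearing blood. The groups did not overlap, as for 75.2% of tested genes, and the medians differed 51.7 times. In log2 units the Cy5 difference was 5.30, against 2.83 for the median gene, and 92.7% of genes had a smaller one. The log2 ratio was 0.53 ± 0.43 in infiltrating cells and -0.57 ± 0.12 in tumour-bearing blood (SD, n = 8 each). It was above 0 on 7 of 8 infiltrating cell arrays and on 0 of 8 blood arrays. The infiltrating cell arrays fell into their slides: those of slide 3 had 0.14 ± 0.17 and those of slide 4 had 0.91 ± 0.10 (SD, n = 4 each), with no overlap. A slide-bound shift and a difference between the tumours on them cannot be told apart. The difference of infiltrating cells and tumour-bearing blood was 1.10 with loess, 1.25 in the deposited ratios and 3.90 with median centring. A second, dim Fasn probe had net Cy5 medians of 174.3 in infiltrating cells and 11.5 in tumour-bearing blood, where it stayed near background on all 8 arrays. Between these groups its log2 ratios overlapped, with a difference of -0.28 with loess, opposite in sign to the brighter probe's, and 0.45 with median centring. In normalised Cy5 infiltrating cells were at least 1.07-fold higher. On blood arrays the probe was well above background in Cy3 on 2 of 8 only. It thus passed the filter through infiltrating cell arrays, and this bound is no support. Against untreated blood its log2 ratio in infiltrating cells was -0.33 with loess, below 0 on all 8 arrays, where the brighter probe had 0.53. With median centring it was 0.42.

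Elovl6, the elongase between Fasn and the desaturases, had net Cy5 intensities of 139, 746.3 and 1076.5 in infiltrating cells, against 27, 42 and 70 in tumour-bearing blood. Its log2 ratio was 0.36 ± 0.30 in infiltrating cells and 0.12 ± 0.13 in tumour-bearing blood (SD, n = 8 each). These ranges overlapped, and the value for tumour-bearing blood lay within its spread of 0. The difference of 0.24 was -0.13 in normalised Cy5 and 1.77 with median centring. In tumour-bearing blood the sign turned, to -0.15 (median centring) and -0.17 (spike-in centring). As with Scd1, its Cy5 gain of 2.73 log2 units stood near that of the median gene, with 48.3% of genes below it.

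Acaca, the carboxylase at the head of the pathway, was barely measured. Its probe was well above background in Cy5 on 5 of 8 infiltrating cell arrays, on 0 of 8 tumour-bearing blood arrays, and in Cy3 on 0 of 16 arrays. Net Cy5 intensity was 1, 22 and 34 in infiltrating cells, against -4, 8.25 and 28 in tumour-bearing blood. The log2 ratios of 0.03 ± 0.13 and 0.02 ± 0.21 (SD, n = 8 each) are values near the floor, had another sign in infiltrating cells with median centring (-0.19) and spike-in centring (-0.53), and give no order of the groups, and the probe passed the filter for testing only through infiltrating cells. A second Acaca probe was as dim, with net Cy5 medians of 20.5 in infiltrating cells and 8.75 in tumour-bearing blood, and the last one did not pass the filter.

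Sqle, the sterol enzyme of the set, had net Cy5 intensities of 1678.5, 8219.8 and 12556.5 in infiltrating cells, against 4.5, 16.5 and 29 in tumour-bearing blood. In tumour-bearing blood the probe was well above background on 2 of 8 arrays only. The log2 ratio was 0.94 ± 0.21 in infiltrating cells and -0.17 ± 0.13 in tumour-bearing blood (SD, n = 8 each), and the groups did not overlap. All infiltrating cell arrays lay above 0 and all tumour-bearing blood arrays below it, as for 9.76% of tested genes. The difference was 1.11 with loess, 1.55 in the deposited ratios, 3.26 with median centring and 3.12 in normalised Cy5. Its Cy5 gain of 6.40 log2 units exceeded that of 98.3% of genes, and the Cy3 signal of untreated blood was also higher on those arrays. Net Cy3 intensity of Sqle was 255, 449.3 and 709.5 on infiltrating cell arrays, against 31, 37.8 and 46 on tumour-bearing blood arrays.

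That Cy3 difference was 2.55 log2 units for Sqle, against 0.60 for the median gene, and 98.4% of genes had a smaller one. For the other 7 genes it lay between 0.38 (Elovl6) and 0.94 (Scd2). The labels name the same untreated blood for both sets of arrays, yet 834 genes (6.79%) exceeded the median gene by more than 1 log2 unit. Of 16535 named genes, 438 were well above background in Cy3 on all 8 infiltrating cell arrays and on no blood array, and 11 showed the opposite pattern. Hepatocyte genes were among the first, of which Alb was picked after its values were seen: net Cy3 medians were 7555.5 on infiltrating cell arrays and 12.8 on blood arrays for Alb (albumin), and 4904.5 and 15.3 for Rbp4. The Cy3 median on infiltrating cell arrays, as a share of the Cy5 median there, differed between genes: it was 1.30% for Afp, 1.41% for Scd2, 3.02% for Rbp4, 4.90% for Alb, 5.47% for Sqle and 10.4% for Me1, a malic enzyme. The part of this Cy3 difference in the ratios was not tested. Ratios to untreated blood on infiltrating cell arrays, that of Sqle above all, hold a denominator that differed from the one on blood arrays.

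**Figure D1:**
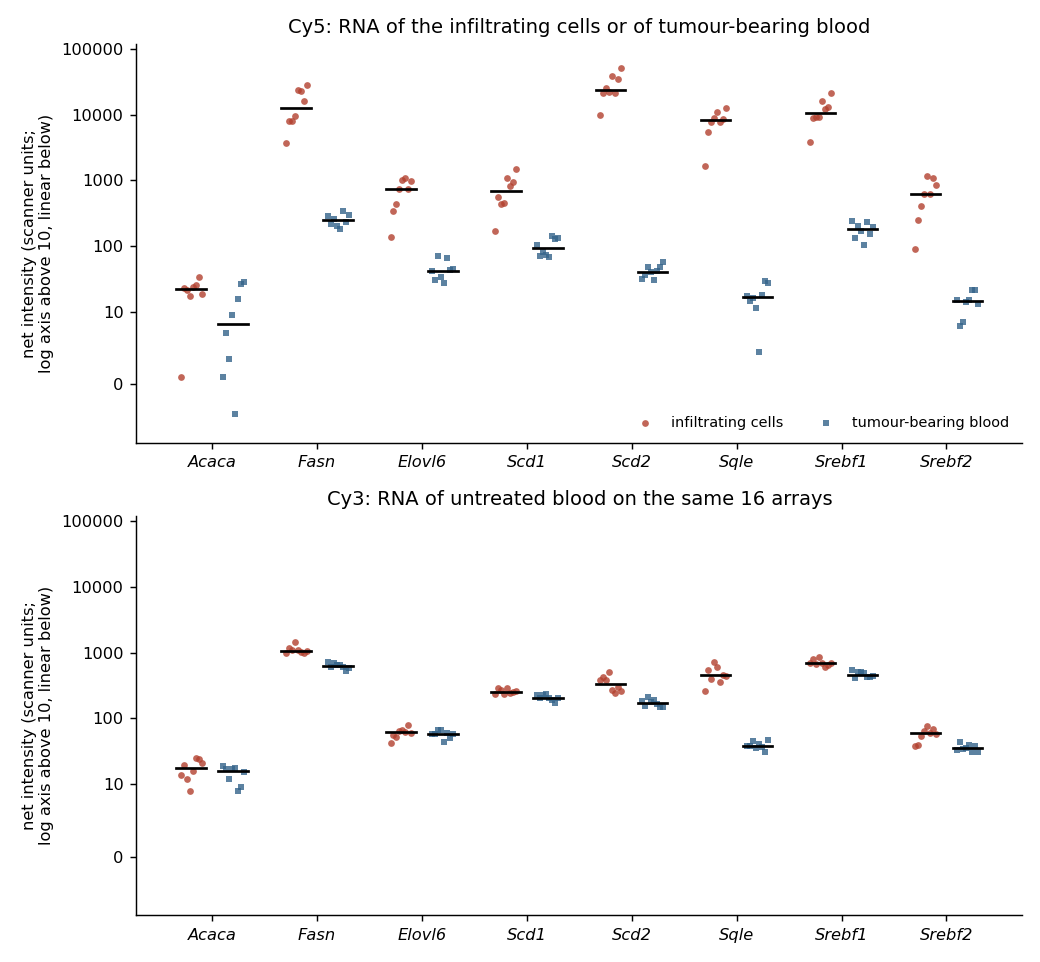
Net intensity of the 8 genes on each of 16 arrays, in scanner units on an axis that is logarithmic above 10 and linear below, with Cy5 in the upper panel and Cy3 (untreated blood) in the lower one. Circles are infiltrating cell arrays, squares are tumour-bearing blood arrays and lines are medians of 8 arrays. In Cy5, 7 genes lay higher on all infiltrating cell arrays than on any blood array and Acaca overlapped, where 75.2% of all tested genes were so separated; in Cy3, Sqle stood at a median of 449.3 on infiltrating cell arrays and 37.8 on blood arrays.

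Srebf1, one of the SREBP genes, had net Cy5 intensities of 3815, 10730.0 and 21337.9 in infiltrating cells, against 104.5, 181.5 and 236 in tumour-bearing blood. The log2 ratio was 0.92 ± 0.13 in infiltrating cells, the narrowest spread beside that of Acaca, and -0.59 ± 0.17 in tumour-bearing blood (SD, n = 8 each). As for Scd2, all 8 infiltrating cell arrays lay above untreated blood and all 8 blood arrays below it under each of the 4 scalings. The difference of the groups was 1.52 with loess, 1.56 in the deposited ratios and 4.29 with median centring. Its Cy5 gain of 5.48 log2 units exceeded that of 94.3% of genes.

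Srebf2, the SREBP gene tied to sterol synthesis, was dim in blood. Net Cy5 intensity was 90, 610.5 and 1180 in infiltrating cells, against 8, 14.5 and 21.5 in tumour-bearing blood, where it was not well above background on any of 8 arrays. Tumour-bearing blood therefore gives only a bound. In normalised Cy5, infiltrating cells were at least 1.42-fold higher than tumour-bearing blood, and untreated blood, measured on all 8 arrays, was at least 1.10-fold above tumour-bearing blood. A bound compares the bright group's mean with a floor for the dim group: on each array, the dimmest signal that counted as well above background, or the probe's own where that was higher. Dye bias can enter it. The log2 ratio in infiltrating cells was 0.26 ± 0.22 (SD, n = 8) and 1.47 with median centring. Its Cy5 gain of 2.98 log2 units was close to the median gene's 2.83. A second Srebf2 probe, dimmer still, gave a log2 ratio of -0.30 in infiltrating cells.

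**Figure D2:**
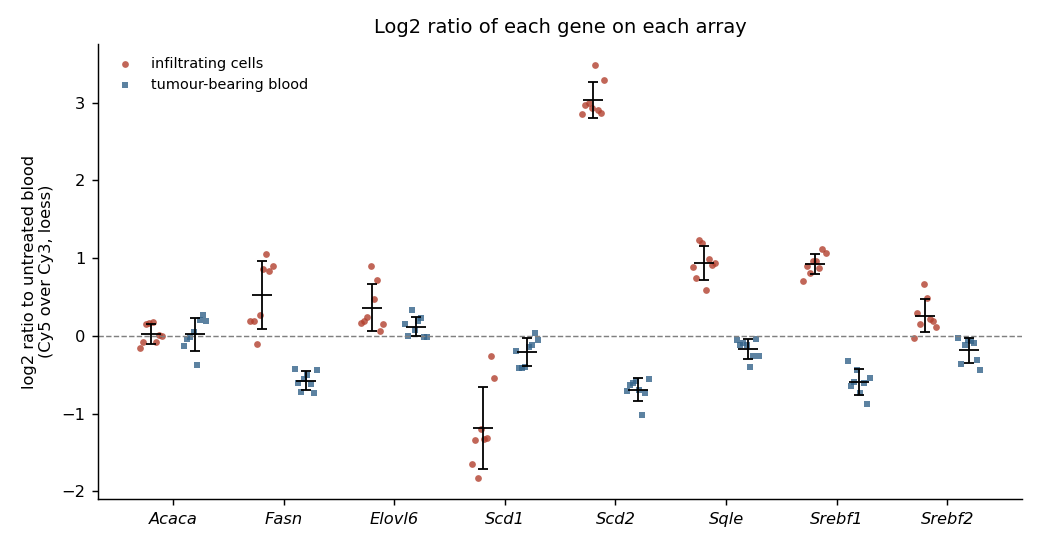
Log2 ratio of Cy5 to untreated blood in Cy3 after loess, for the 8 genes on each array, with the mean and SD of 8 arrays in black. Scd2, Sqle and Srebf1 lay above 0 on all 8 infiltrating cell arrays (circles) and below 0 on all 8 tumour-bearing blood arrays (squares), while Scd1 lay below 0 on all 8 infiltrating cell arrays with this scaling.

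In order of level, by their brightest probes, Scd2, Fasn, Sqle and Srebf1 were highest in infiltrating cells, then untreated blood, then tumour-bearing blood. For Sqle the last step, -0.17 with an SD of 0.13, rests on arrays at background, and with spike-in centring 1 blood array lay above 0. With loess the second, dim Fasn probe put infiltrating cells below untreated blood, at -0.33. Scd1 ran with untreated blood first, then tumour-bearing blood, then infiltrating cells with loess, and with infiltrating cells first under median centring. For Elovl6, Srebf2 and Acaca at least 1 pair of neighbours did not differ beyond the spread or could not be measured.

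**Figure D3:**
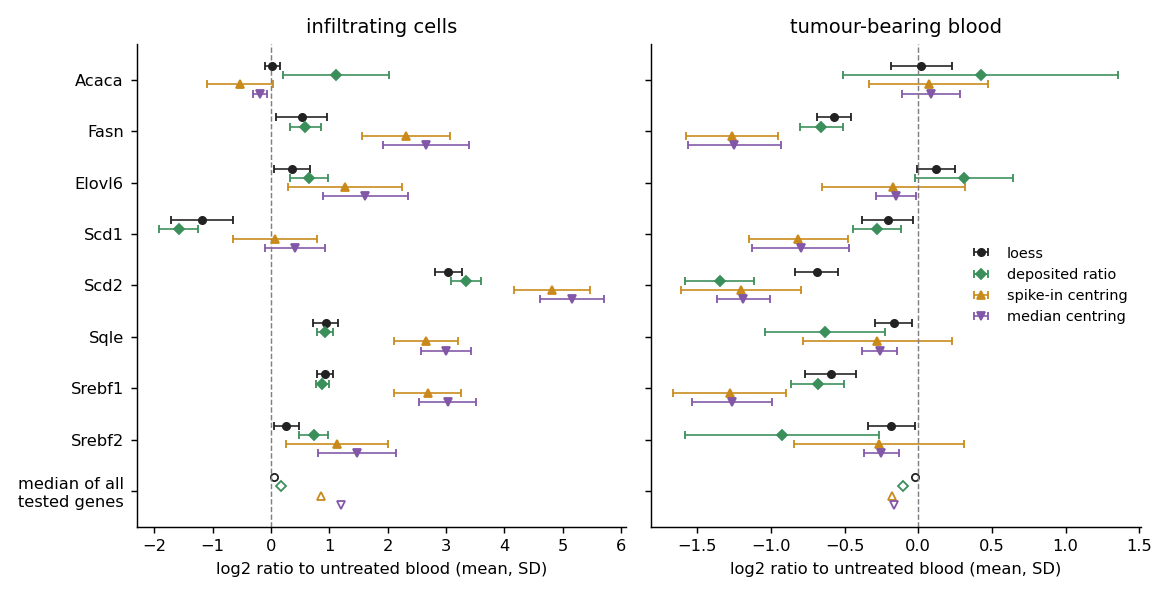
Mean log2 ratio to untreated blood with its SD over 8 arrays under 4 scalings, for infiltrating cells on the left and tumour-bearing blood on the right; open symbols are the median of all 12311 tested genes. In infiltrating cells Scd1 had -1.18 with loess and 0.41 with median centring, while Scd2 was above 3 under all 4.

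By the limma fit over all tested genes, a call needed both an adjusted p (Benjamini-Hochberg) under 0.05 and a mean change of 2-fold or more. Against untreated blood in infiltrating cells, 9.32% of tested genes were called higher and 10.1% lower; of the 8 genes, 1 was higher (Scd2), 1 was lower (Scd1) and 6 were not called. In tumour-bearing blood 0.504% of genes were called higher and 0.244% lower against untreated blood. None of the 8 was called there, since no mean reached 2-fold with loess. With median centring the means of Scd2, Fasn and Srebf1 in tumour-bearing blood passed 2-fold, at -1.19, -1.25 and -1.26. For infiltrating cells against tumour-bearing blood 12.1% were called higher and 11.8% lower; 4 of the 8 were higher (Scd2, Srebf1, Sqle and Fasn), none lower and 4 not called. Because the genes were chosen on these ratios, nothing is read from these counts. Fasn was not called when the mean of its tested probes was used, with a difference of 0.41, and Scd1 was not called on slide 4 alone, with -0.86. Of all genes called in infiltrating cells against untreated blood 48.0% were higher, and 94.4% with median centring; against tumour-bearing blood these shares were 50.6% and 95.7%. In tumour-bearing blood against untreated blood they were 67.4% and 1.12%.

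Among the infiltrating cell arrays, the array of sample 889 had the lowest Cy5 intensity for each of the 8 genes and also the smallest share of spots well above background, 51.1%. The log2 ratios of Scd1 and Srebf1 varied together over the 8 arrays (Pearson r = 0.911), and so, less closely, did those of Srebf2 and Elovl6 (0.733) and of Srebf2 and Acaca (0.705). Scd2 and Sqle had r = -0.509, and Scd1 and Scd2 had 0.096. The 8 points share slides and arrays, so these values are descriptions. Of 12296 other genes, the ratio of Scd1 was most like those of C1ql3 (r = 0.983) and Otof (0.983) over these arrays, that of Scd2 like Atad1 (0.891) and Mcmbp (0.885), that of Fasn like Ubtd1 (0.990) and Ptcd1 (0.989), and that of Srebf1 like Il17rd (0.986) and Fam43a (0.981). Elovl6 was most like Kcnk6 (0.964) and Gstz1 (0.951), Srebf2 like Atm (0.979) and Ptprb (0.925), Sqle like Ehd1 (0.971) and Iqcg (0.965), and Acaca like Kifc3 (0.950) and Slc45a2 (0.948).

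Around these 8 genes, 6 lists of pathway genes held 117 other tested genes. Of these, 16 rose, 5 fell and 96 were not called in infiltrating cells against untreated blood, and 22 rose, 7 fell and 88 were not called against tumour-bearing blood. In tumour-bearing blood against untreated blood 1 rose and none fell. Over all tested genes 9.32% were called higher and 10.1% lower in infiltrating cells against untreated blood. Against tumour-bearing blood these shares were 12.1% and 11.8%, and in tumour-bearing blood against untreated blood 0.504% and 0.244%. Each list count below is to be read against these shares. All genes called higher kept their sign under the other 3 scalings. Of the 5 called lower against untreated blood, median centring turned the sign of 3 and spike-in centring that of 2, and of the 7 called lower against tumour-bearing blood, that of 7 and of 5. Most calls of a fall thus depended on the scaling. Median centring put the median tested gene 1.20 above untreated blood and 1.45 above tumour-bearing blood. With it, and with the 8 genes included, 20 of 27 fatty acid and 14 of 21 sterol synthesis genes were called higher against untreated blood. So were 14 of 20 SREBP, 11 of 13 efflux, 12 of 22 triglyceride and 14 of 22 oxidation genes. Most calls over all genes were then higher too.

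Of 22 other fatty acid genes, 5 rose and 3 fell in infiltrating cells against untreated blood (median log2 0.33, against 0.05 over all tested genes). Acsl4, an acyl-CoA synthetase with a preference for arachidonate, rose by 2.36 ± 0.10 on the log2 scale (SE, n = 8, adjusted p = 3.42e-08, limma). Hacd3, a dehydratase of fatty acid elongation, rose by 2.02 ± 0.05 (adjusted p = 6.49e-10, limma), and the synthetase Acsl3 by 1.76 ± 0.16 (adjusted p = 8.00e-06, limma). Against tumour-bearing blood Acsl4 and Hacd3 rose by 2.68 and 2.40 (adjusted p = 8.52e-13 and 6.64e-14, limma), and the ratio of Acsl3 by 1.79 (adjusted p = 6.32e-08, limma). Acsl3 was not well above background in tumour-bearing blood. In normalised Cy5, which was not what limma tested, infiltrating cells were at least 4.97-fold higher. Acsl1, another acyl-CoA synthetase, had fallen against untreated blood by 2.01 ± 0.08 with loess (adjusted p = 1.26e-08, limma), but its value was 0.19 with median centring. Acss2, which makes acetyl-CoA from acetate, fell by 1.28 ± 0.17 (adjusted p = 8.75e-05, limma) and was at -0.13 with median centring. Elovl1, an elongase of very long chains, fell by 1.09 ± 0.09 (adjusted p = 4.62e-06, limma), and its sign turned to 0.89 with median centring. With the mean of all probes Acss2 had -0.73 and was not called, and on slide 4 alone Elovl1 had -0.92.

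Of the 5 genes that rose, the others were Fads3, named as a fatty acid desaturase, and Hsd17b12, a reductase of fatty acid elongation. They had 1.29 and 1.11 against untreated blood, and these names were added after their values were seen. Fads3 was well above background on no blood array in either channel, with Cy3 medians of 84.8 on infiltrating cell arrays and 10.8 on blood arrays. Several other genes of acetyl-CoA supply, elongation and desaturation were not called. Acly, ATP citrate lyase, had a log2 ratio of 0.42 in infiltrating cells and -0.01 in tumour-bearing blood. Elovl5, Fads1 and Fads2, which lengthen and desaturate polyunsaturated chains, had 0.50, 0.03 and 0.19 in infiltrating cells and -0.07, 0.32 and 0.06 in tumour-bearing blood, where Fads1 turned to -0.12 with median centring. Acacb, the mitochondrial carboxylase, was not well above background on any array in either channel. Me1, the malic enzyme that supplies NADPH, shared the Cy3 pattern of Sqle: its net Cy3 median was 390.3 on infiltrating cell arrays and 12 on blood arrays. Its log2 ratio in infiltrating cells was 0.18, while in normalised Cy5 it was at least 6.57-fold higher than in tumour-bearing blood, where it was not well above background. The Me1 probe passed the filter on infiltrating cell arrays only, so this bound could only point that way and is no support.

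Sterol synthesis beside Sqle had 20 tested genes, of which 2 rose and 1 fell in infiltrating cells against untreated blood, with a median log2 of -0.03, against 0.05 over all tested genes (1.37 and 1.20 with median centring). Msmo1, the sterol methyl oxidase, rose by 1.76 ± 0.05 (SE, n = 8, adjusted p = 9.90e-10, limma), and Hmgcs1, the cytosolic HMG-CoA synthase, by 1.40 ± 0.10 (adjusted p = 8.11e-07, limma). Against tumour-bearing blood Msmo1, Hmgcs1 and Ebp, a sterol isomerase, rose by 2.21, 1.75 and 1.32 (adjusted p = 9.84e-15, 1.21e-10 and 2.83e-09, limma). Lss and Cyp51, a cyclase and a demethylase of the pathway, had -0.04 and -0.20 in infiltrating cells, against 0.78 and 1.40 with median centring, and neither was called. In tumour-bearing blood both were not well above background, and infiltrating cells were at least 1.36-fold higher for Lss and 2.46-fold for Cyp51 in normalised Cy5. Both probes passed the filter on infiltrating cell arrays only, so these bounds could only point that way and are no support. In ratios to untreated blood the difference of the groups was -0.07 for Lss and -0.04 for Cyp51 (adjusted p = 0.335 and 0.677, limma). Their Cy3 medians were 44 and 162.3 on infiltrating cell arrays and 11.5 and 19.8 on blood arrays. With the mean of its probes Hmgcs1 was at 0.80 against untreated blood and 0.96 against tumour-bearing blood, and not called.

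Of 18 other SREBP regulators and uptake genes, 2 rose and 1 fell against untreated blood (median log2 0.19). Insig2, a retention protein of the SREBP complex, rose by 1.35 ± 0.11 in infiltrating cells against untreated blood and by 1.53 ± 0.12 against tumour-bearing blood (SE, adjusted p = 2.37e-06 and 2.24e-09, limma). Insig1, the other Insig protein, had 0.10 and 0.11 (-0.12 and -0.17 with spike-in centring) and was not well above background in either blood. Infiltrating cells were at least 1.07-fold above untreated blood and 1.10-fold above tumour-bearing blood in normalised intensity. Its probe passed the filter only through infiltrating cells, so these bounds could only point that way and are no support. Scap, the escort, had -0.32 and -0.03 (1.71 and 2.67 with median centring) and was not called. Mbtps1, the protease that first cleaves SREBP, rose by 1.66 ± 0.09 against tumour-bearing blood (adjusted p = 9.81e-12, limma). Mylip, a ubiquitin ligase and target of LXR, fell by 2.59 ± 0.22 and 2.19 ± 0.23 (adjusted p = 3.78e-06 and 1.78e-07, limma), and against untreated blood it was still lower with spike-in centring (-1.12, called) and median centring (-0.77, not called). Against tumour-bearing blood its value was -0.04 with spike-in centring and 0.29 with median centring. Nr1h3, which encodes an LXR, had 0.20 against untreated blood and was not called. With the mean of its probes Mbtps1 was at 0.72 and not called.

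Sterol efflux and esterification had the highest list median in infiltrating cells against untreated blood, 0.67, with 4 of 13 genes up and none down. Cyp7b1, an oxysterol hydroxylase, rose by 1.87 ± 0.17 (SE, n = 8, adjusted p = 6.69e-06, limma), and its Cy3 median was 57.5 on infiltrating cell arrays and 10 on blood arrays. Ch25h, which makes an oxysterol, was at least 2.25-fold higher than untreated blood in normalised intensity. Its probe passed the filter only through Cy5 of infiltrating cells, so its call could only be a rise and is no support. The other genes among the 16 that rose passed in Cy3 or in tumour-bearing blood as well. For Fads3, Cyp7b1 and Mogat2 this was Cy3 of infiltrating cell arrays alone, as no blood array was well above background in either channel. Their rises share part of that limit. Nceh1, a cholesteryl ester hydrolase, rose by 1.12 ± 0.08 (adjusted p = 8.73e-07, limma), and Soat1, which makes cholesteryl esters, by 1.07 ± 0.11 (adjusted p = 1.47e-05, limma). Abca1, a cholesterol exporter, had 0.88 against untreated blood, not called, and rose by 1.31 ± 0.11 against tumour-bearing blood (adjusted p = 4.20e-09, limma). Its relative Abcg1 had 0.53 and 0.92 and was called in neither. In normalised Cy5, Abca1 was 0.98 above tumour-bearing blood and no longer called. Soat1 lost its call against untreated blood without sample 890 (0.99), on slide 4 alone (0.96) and with the mean of its probes (0.53), and Ch25h without background correction (0.92) and on slide 4 alone (0.92).

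Triglyceride synthesis and lipid droplets had 3 of 22 genes up and none down against untreated blood (median 0.09). Mogat2, an acyltransferase, rose by 1.62 ± 0.11 (adjusted p = 8.04e-07, limma), and the droplet proteins Hilpda and Plin3 by 1.28 ± 0.05 and 1.28 ± 0.12 (SE, n = 8, adjusted p = 2.08e-08 and 1.20e-05, limma). The Cy3 medians of Mogat2, Hilpda and Plin3 were 106.5, 1805.3 and 584.5 on infiltrating cell arrays and 10.5, 80.5 and 159.5 on blood arrays. Agpat3, an acyltransferase, rose by 1.27 ± 0.08 against tumour-bearing blood (adjusted p = 7.37e-11, limma). Plin2, the droplet coat of most cells, was not called, with 0.43 against untreated blood; its net Cy3 median was 4875.3 on infiltrating cell arrays and 196.8 on blood arrays. Pnpla2, the lipase that opens triglyceride breakdown, fell by 1.30 ± 0.12 against tumour-bearing blood (adjusted p = 4.49e-08, limma) and had 1.43 with median centring. In tumour-bearing blood against untreated blood, Dgat2, which completes triglyceride, was the 1 gene of these 6 lists called, at 1.02 ± 0.10 (adjusted p = 6.62e-07, limma), and it was not called with median centring (0.58), spike-in centring (0.57), no background correction (0.63), the mean of its probes (0.35), slide 1 alone (0.80), without sample 897 (0.97) or without sample 898 (0.94). Plin3 was at 0.92 on slide 3 alone, and Agpat3 at 0.40 with the mean of its probes; neither was then called.

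Fatty acid oxidation, the opposing pathway, had 0 of 22 genes called by limma in infiltrating cells against untreated blood, with a median of 0.04, against 0.05 over all genes. That count depended on the scaling: 14 were called higher with median centring, 13 with spike-in centring, and 2 higher and 3 lower in the deposited ratios. Cpt1a, the carnitine transferase at its entry, had 0.31 in infiltrating cells and 0.30 in tumour-bearing blood, the second turning to -0.22 with median centring. Against tumour-bearing blood Acaa1a, a peroxisomal thiolase, rose by 1.21 ± 0.09 (adjusted p = 2.41e-09, limma) and its near-identical copy Acaa1b fell by 1.03 ± 0.10 (adjusted p = 4.04e-08, limma). Probes of such copies can share signal, and the mean over the Acaa1a probes was -0.23, so both directions are uncertain. Acaa1b was not called without infiltrating cell sample 894 (-0.99) or without background correction (-0.94), and its sign turned with median centring (1.31) and spike-in centring (0.98).

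**Figure D4:**
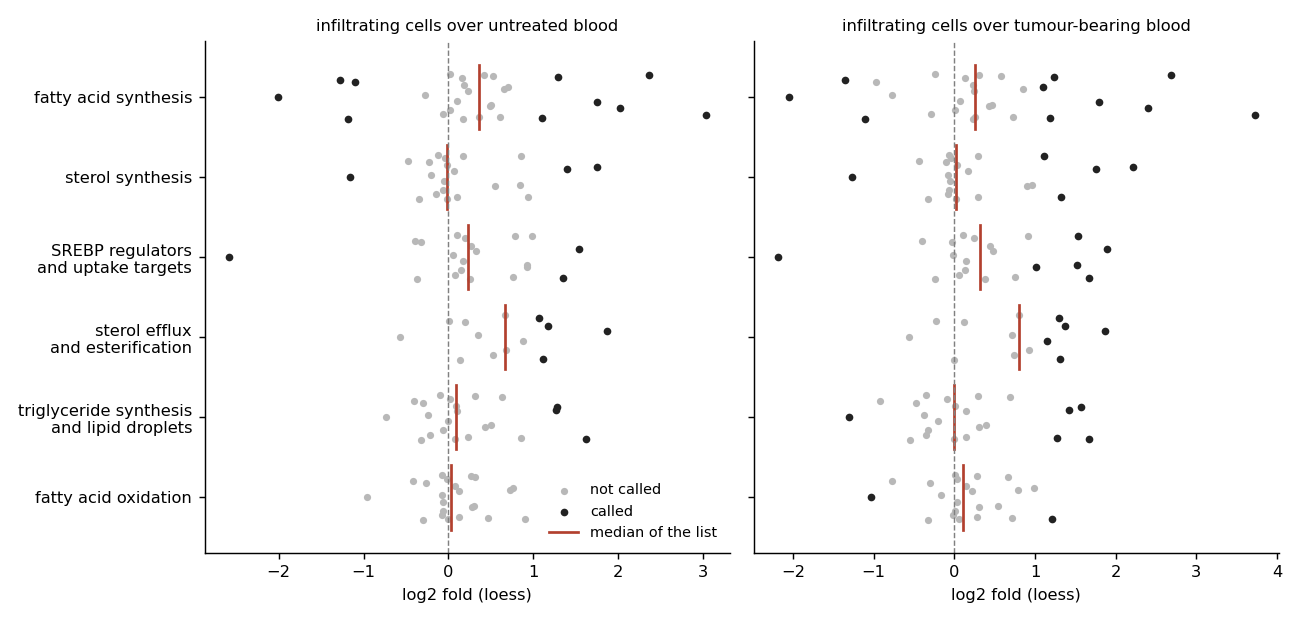
Log2 fold after loess of every tested gene in 6 pathway lists, the 8 chosen genes included, for infiltrating cells over untreated blood on the left and over tumour-bearing blood on the right. Black points were called by limma, grey points were not, and red lines are list medians; sterol efflux and esterification had the highest median in the left panel, 0.67, and fatty acid oxidation had no called gene there, against 14 with median centring.

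Cell type markers also differed between infiltrating cells and tumour-bearing blood, some lists being higher and others lower. Of 20 hepatoma and hepatocyte genes with a probe, 14 were well above background on all infiltrating cell arrays, and their summed net Cy5 ran from 236019.6 to 1270656.4, against 217.8 to 532.9 in tumour-bearing blood. Afp, the fetal albumin of hepatoma, and Rbp4 led them, with net Cy5 medians of 235754.8 and 162665.3 in infiltrating cells and 60.2 and 6.25 in tumour-bearing blood. All 14 monocyte and macrophage genes were well above background on all infiltrating cell arrays, led by Lyz2 and C1qc, with a sum of 93186.5 to 369409.5, against 18307 to 39173 in tumour-bearing blood. Fibroblast genes summed to 70521.9 to 297122.8, against 713.8 to 1554.5, and were led by Dcn and Thy1. Adipocyte genes, led by Lpl and Fabp4, summed to 7029.8 to 39238.5, against 227.7 to 619.9, while Plin1, Lep and Retn were near background on all 16 arrays. Of 12 skin and sebaceous genes 7 were not well above background on any infiltrating cell array, among them Scd3 and Mc5r, and the sum, led by Soat1 and Krt5, was 1198.5 to 6646.5, against 121 to 588.5.

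These sums are not scaled between arrays and carry the general gain in brightness. Among the blood lineages, T cell genes, led by Lck and Cd3d, summed to 19070.0 to 56022.5 in infiltrating cells, against 1434.8 to 2741.8 in tumour-bearing blood. With loess the median T cell gene was -0.24 against tumour-bearing blood, with 0 of 9 called higher and 2 lower by limma, and it was 1.77 with median centring. Neutrophil genes, led by S100a9 and Retnlg, summed to 17045 to 119718.8, against 28805.2 to 87025.7, and B cell genes, led by Blnk and Cd79b, to 3673.5 to 17449.5, against 5358 to 12665. These sums overlapped, while with loess 8 of 10 neutrophil and 8 of 9 B cell genes were called lower against tumour-bearing blood, with medians of -1.96 and -3.21 (-0.35 and -0.69 with median centring). Erythroid genes, led by Alas2 and Hbb-bt, were lower in infiltrating cells, at 188478.6 to 547662.7, against 806408.1 to 1898890.8, and so were platelet genes, led by Pf4 and Clec1b, at 8293 to 43247.1, against 43840.0 to 121117.6. Endothelial genes (Esam and Egfl7 first) reached 428.3 to 3018.6, against 177.4 to 457.1, and cell cycle genes (Mcm6 and Pcna first) 34897.4 to 134679.1, against 1071.5 to 2340.1. The part of hepatoma cells, macrophages or any other cell type in the levels of the 8 genes was not tested, and in such mixed RNA fewer cells of a type and less RNA per cell cannot be told apart.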

How the data were processed

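Blood and tumour fractions were measured on 2-colour Agilent mouse arrays, 8 per group. In the deposited files each spot has its median pixel intensity, with that of the surrounding background, per the file headers, which name Feature Extraction 10.5.1.1 (9.1.3.1 in the submitters' processing notes). They also hold a log10 ratio of Cy5 over Cy3, background-subtracted and dye-normalised by the authors' program per the file headers; it equals the series' value table (largest difference 0).

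Background was corrected with normexp (offset 50) and ratios normalised by loess in limma 3.58.1 (R 4.3.3), with control spots and the 87 to 153 flagged spots per array at weight 0. Spots of a probe were averaged. Of 41174 probes, 23374 had 1 symbol through an unversioned RefSeq accession (GRCm38.p6) and 17800 none. A probe entered the tests when the program marked it well above background in Cy5 on 4 or more of a group's 8 arrays, or in Cy3 on 8 or more of 16 (26509 probes). limma tested the mean of 8 ratios against 0, or the 2 groups over 16 arrays, with p-values adjusted over all tested probes. No spot was saturated (0).

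Untreated blood counts as 1 control sample, so its spread is left out, and dye bias stays in. Nothing says that samples are separate mice, so p-values measure the spread between these samples. The 8 genes and the gene lists were chosen with earlier results of these data known. Named were the 8 genes, up to 4 called genes per pathway list and direction, 19 fixed genes (a few of the named genes are not reported here), the 2 brightest genes of each marker list in infiltrating cells and, per gene of the 8, the 2 most correlated. On simulated data of 26455 probes the fit of infiltrating cells against untreated blood recovered 98% of 100 probes changed by 1.5 log2 units, with 1 false call. The simulated noise was normal and independent between probes and arrays, without dye bias, intensity trend or slide effect. It therefore does not measure false calls that come from these or from the scaling. Alternatives were other background corrections and scalings, probe filters, single slides, blocks and samples left out.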

Additional observations from a re-analysis of the deposited data

Results flagged for a closer look

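In tumour-bearing blood the log2 ratio of Scd2 to untreated blood was -1.02 in sample 896, farther from the other 7 values (-0.73 to -0.56) than Dixon's criterion for 8 samples allows; chance flags about 1 group in 20, and 16 groups of values were examined.

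For 3 genes all 8 infiltrating cell arrays lay above untreated blood and all 8 tumour-bearing blood arrays below it, as for 9.76% of the 12311 tested genes. The difference of infiltrating cells and tumour-bearing blood was 3.73 log2 units for Scd2, 1.52 for Srebf1 and 1.11 for Sqle. These genes were chosen on these ratios, so the difference was not tested. With spike-in centring 1 tumour-bearing blood array of Sqle lay above 0, and in the deposited ratios 1 did as well.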

How the results depend on the processing

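Counts of called genes depended most on how the arrays were scaled. In infiltrating cells against untreated blood 2392 genes were called, 48.0% of them higher; the number was 4372 with subtraction of the local background, 7259 with median centring (94.4% higher), 6272 with spike-in centring (90.2% higher) and 5764 with the deposited ratios. In tumour-bearing blood against untreated blood 92 were called (67.4% higher), against 53 without background correction, 402 with subtraction (44.3% higher), 894 with median centring (1.12% higher), 936 with spike-in centring (1.07% higher), 956 with the deposited ratios (34.1% higher), 61 on slide 1 alone (80.3% higher) and 152 on slide 2 alone. For infiltrating cells against tumour-bearing blood 2935 were called (50.6% higher), against 5315 with subtraction, 7711 with median centring (95.7% higher), 7075 with spike-in centring (92.0% higher) and 7011 with the deposited ratios. The cause was not tested. Leaving out 1 sample gave 2312 to 2625, 75 to 105 and 2846 to 3193 calls in the 3 comparisons, in this order.

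Scd1 in infiltrating cells against untreated blood was -1.18 and turned sign, to 0.41 under median centring and to 0.068 under spike-in centring. Of 513 values of the 8 genes under alternatives, 441 moved by less than the spread between samples, 70 moved by more and the 2 of Scd1 turned a call; 27 values changed sign in all, 19 of them for Acaca, 4 for Scd1, 3 for Elovl6 and 1 for Srebf2. None of the 70 came from leaving out a sample, a slide or adding a block. Of 390 list counts, 319 stayed within 1.5 times, 62 were larger and 9 smaller.

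Samples of the same number correlated at -0.166 to 0.20 in their deviations, over 0.1 in 4 of 8 pairs, and 2 of 8 samples correlated best with their own number, so the numbers were not taken as pairs. With the replicate block 2935 genes were called, and 2935 with slide as a random block, since each gene past 2-fold had an adjusted p under the threshold (limma); 9070 and 8694 genes passed the adjusted p alone, against 9219 without a block. Acaca, and Srebf2 and Sqle in tumour-bearing blood, are limited by signal near background.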
